A study of Oryctolagus cuniculus with 35 samples.

Results

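Cytosolic ribosomal protein genes were described in the lungs of New Zealand rabbits, as the genes whose names begin with RPL or RPS followed by a number, without the RPS6K kinases. Of 23669 genes in the deposited tables, 37 had such a name. Of these 12 were listed at 0 in every library, among them RPL10, RPL12, RPL39, RPL3L, RPS13, RPS21, RPS27A, RPS28 and RPS7, which left 25 members. RPL10L, a paralog of RPL10 known from testis, had 0 to 5 reads, above 0 in 6 of 35 libraries, and was too low to test. The other 24 were tested in every comparison, 13 of the large subunit and 11 of the small subunit.

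Lung messenger RNA was sequenced in 5 groups of 7 rabbits, and each of the 35 rabbits gave 1 library. Healthy rabbits were given NaCl and had no pneumonia. The other 4 groups all had pneumococcal pneumonia together with adverse mechanical ventilation, which no group had singly, and were treated 4 h after the bacteria with NaCl, with mesenchymal stromal cells (MSC, from human umbilical cord, 3000000 cells per kg intravenously), with ceftaroline (a cephalosporin antibiotic, 20 mg/kg intramuscularly), or with ceftaroline and MSC. Lungs were taken at 24 h, or earlier from rabbits that died before, so that pneumonia, ventilation and time of death are combined in every diseased group. Infection and ventilation cannot be told apart.

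The ribosome makes protein from messenger RNA, and each of its proteins is built into 1 of its subunits around ribosomal RNA. Most vertebrate ribosomal protein transcripts begin with a terminal oligopyrimidine (TOP) tract, through which mTOR signalling controls their translation more than their amount. Several of the proteins also act outside the ribosome: RPL5 and RPL11, bound to 5S ribosomal RNA, hold back the ubiquitin ligase MDM2 when ribosome assembly fails. Ribosomal protein genes have many processed pseudogenes, and reads of near-identical copies can be split or moved between them, so the level of a single member is uncertain to that extent. How reads with several matches were treated is not given in the sources used here.

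Libraries held 7567008 to 33209729 reads, with a median of 11137017. Replicates differed by far more than counting noise: chi-square divided by its degrees of freedom was at least 39.4 for any 2 libraries in a group. Of the lung markers, the alveolar type II genes SFTPC, SFTPD and ABCA3 were listed at 0 in every library, while 3 other type II markers and all 6 type I markers found in the tables had reads. Sample titles of 5 healthy libraries (4 PD and 1 PG), 3 NaCl libraries and 2 MSC libraries (all PG) end in letters whose meaning is not given. These NaCl titles begin with I or L and these MSC titles with N, where the rest of their groups begin with B or C. Titles of healthy replicates 6 and 7 begin with D, as those of the ceftaroline group do, and the other healthy ones with A. Their title numbers, 5 and 7, also occur in the ceftaroline group. The labels give both libraries as healthy, and the meaning of the shared letter is not given. In NaCl and MSC, ending and first letter cannot be told apart. The NaCl libraries with the PG ending stood apart from the rest of their group in most genes described here. In MSC the PG libraries had lower means in most of these genes, but mostly with overlap. Results that move with the PG libraries are given with and without them. A further mark, S00, is carried by each of the 7 healthy libraries but by 1 NaCl library only, and cannot be told apart from health.

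The members together took 1.91% ± 0.117 (SD, n = 7) of all reads in healthy lungs, with a range of 1.71% to 2.05%. In NaCl-treated pneumonia the share was 1.40% ± 0.274 and ranged from 1.11% to 1.77%. The lowest 3 of these were the PG libraries (1.11% to 1.20%), and the other 4 lay between 1.33% and 1.77%. The share was 1.54% ± 0.171 with MSC, 1.52% ± 0.218 with ceftaroline and 1.64% ± 0.112 with both (SD, n = 7 each). A share falls when other transcripts take more of the reads. Members and denominator were also limited to tested genes outside the 100 most abundant, which left 20 members. The shares were then 1.33% ± 0.163, 1.03% ± 0.320, 1.03% ± 0.126, 1.01% ± 0.0955 and 1.06% ± 0.0555 in the same order (SD, n = 7 each). They ranged from 1.11% to 1.60% in healthy lungs, from 0.720% to 0.797% in the NaCl PG libraries and from 0.960% to 1.55% in the other NaCl libraries. In bulk tissue, fewer cells of a type and less RNA per cell cannot be told apart.

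On a scale less dependent on the most abundant transcripts (rpm, counts per 1000000 reads with effective library sizes from trimmed means), the members did not move in 1 direction. The median over the 24 members of the log2 difference from the healthy mean lay between -0.24 and 0.27 in the 7 healthy lungs. It lay between 0.15 and 0.62 in the 4 NaCl libraries without a title ending, and between -0.68 and -0.38 in the 3 PG libraries. Of the 4 without an ending 2 lay above every healthy lung and 2 within the healthy range, and all 3 PG libraries lay below every healthy lung. Lungs given MSC ranged from -0.45 to 0.16, those given ceftaroline from -0.30 to 0.21 and those given both from -0.22 to 0.09, so that these groups overlapped the healthy lungs.

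**Figure D1:**
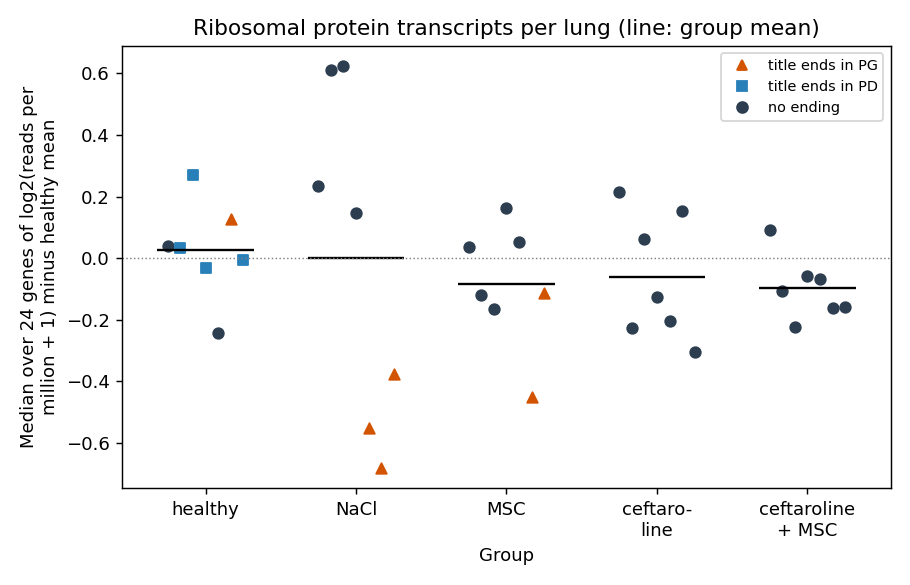
The vertical axis gives, for each lung, the median over 24 ribosomal protein genes of log2(rpm + 1) minus the healthy mean; the horizontal axis gives the group, symbols mark the ending of the sample title, and lines mark group means. The 4 NaCl libraries without an ending sit between 0.15 and 0.62, and the 3 with the PG ending between -0.68 and -0.38.

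Pneumonia with ventilation was compared with healthy lung to ask how the 2 insults together alter lung transcripts. Few members changed: RPL7L1, RPL36A-HNRNPH2, RPL26L1 and RPS20 rose, and RPS27, RPL26 and RPL37 fell. These 7 of 24 tested members (29.2%) were called at an adjusted p under 0.05 (limma, Benjamini-Hochberg over all genes), where 60.6% of all 9545 genes tested were called. In each direction the members' counts, 4 higher and 3 lower, stood beside 29.7% and 30.9% of all genes. The median log2 fold change of the members was 0.07, against 0.00 for all genes, and the median of its size was 0.33, against 0.72 for all genes. The large subunit (7 higher and 6 lower by sign, median 0.07) and the small subunit (7 higher and 4 lower, median 0.07) had the same median.

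The clearest rises were those of paralogs. RPL26L1, a paralog of RPL26, had 381, 520 and 583 normalized reads (lowest, median and highest) in healthy lungs and 694, 1071 and 1165 in NaCl lungs. Every NaCl lung was above every healthy lung. The log2 fold change was 0.99 (SE 0.16, adjusted p = 8.7e-05), or 1.98-fold. It was 1.51 within the libraries without a title ending, 0.54 within those with one and 1.28 without the PG libraries, and all 3 values were called. RPL7L1, a paralog of RPL7 that is known from precursors of the large subunit, had 13.0, 30.9 and 38.7 normalized reads in healthy and 61.3, 72.0 and 158 in NaCl lungs. Again all 7 NaCl lungs were higher. The log2 fold change was 1.58, or 3.00-fold (SE 0.27, adjusted p = 0.00011), and it was 1.18 without the PG libraries and still called. These were the 2 members without overlap between the groups, both higher, where 14.7% of all genes had no overlap in that direction, and 0 members against 15.2% of all genes had none in the other.

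RPL36A-HNRNPH2 carries the name of a readthrough of RPL36A into its neighbour HNRNPH2, so its reads are not those of RPL36A alone. It had 3.22, 9.91 and 22.0 normalized reads in healthy and 18.6, 26.2 and 43.4 in NaCl lungs. The lowest NaCl lung lay below the highest healthy lung, and the log2 fold change was 1.55 (SE 0.33, adjusted p = 0.00086), or 2.01 without the PG libraries, again called. RPS20, a protein of the head of the small subunit, had 70.4, 86.2 and 102 normalized reads in healthy and 101, 131 and 183 in NaCl lungs. The groups met only at the edge, where the highest healthy lung was just above the lowest NaCl lung, and the log2 fold change was 0.59 (SE 0.17, adjusted p = 0.0063). RPS20 was called without the PG libraries (0.84), but not within the libraries without an ending (0.71) or within those with one (0.34).

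Among the members that fell, RPS27, a zinc-finger protein of the small subunit, had 354, 445 and 567 normalized reads in healthy lungs and 186, 244 and 466 in NaCl lungs. Most NaCl lungs were below the healthy range, with overlap at the top. The log2 fold change was -0.74 (SE 0.20, adjusted p = 0.0046), and without the PG libraries of either group it was -0.45 and no longer called (adjusted p = 0.081).

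RPL26, a protein at the exit of the peptide tunnel, had 8976, 11648 and 15769 normalized reads in healthy and 5509, 7698 and 12840 in NaCl lungs. The ranges overlapped, and the log2 fold change was -0.55 (SE 0.21, adjusted p = 0.030). RPL37, a zinc-finger protein of the large subunit that can bind MDM2, had 7678, 9668 and 14467 in healthy and 5189, 7085 and 11553 in NaCl lungs, again overlapping, and its log2 value was -0.54 (SE 0.21, adjusted p = 0.036). Both of these calls were lost when healthy replicate 3, 4 or 6 or NaCl replicate 5, 6 or 7 was left out, and that of RPL37 also without NaCl replicate 4. Without the PG libraries both values were -0.17, and neither was called.

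RPL32, RPS3 and RPL11 did not pass the test with disease. RPL32, a common reference gene of quantitative PCR, had 136, 199 and 261 normalized reads in healthy and 150, 202 and 343 in NaCl lungs, a log2 fold change of 0.07 (SE 0.22). RPS3, which lines the entry of messenger RNA and also takes part in DNA repair, had 9513, 17328 and 21319 in healthy and 11458, 20138 and 28971 in NaCl lungs, a log2 fold change of 0.24 (SE 0.24). For RPS3 it was 0.49 and called both without the PG libraries (adjusted p = 0.024) and with PG as a covariate (adjusted p = 0.0082). RPL11 had 14053, 17380 and 21395 in healthy and 10584, 14162 and 20019 in NaCl lungs, a log2 difference of -0.32 (SE 0.18, adjusted p = 0.13). For all 3 the NaCl range was at least as wide as the healthy one and overlapped it. The sign for RPL32 turned when healthy replicate 6, NaCl replicate 2 or NaCl replicate 3 was left out, so no direction can be given for it. The panel of 14 members to be named held 9 others, RPLP0, RPL13A, RPS18, RPS6, RPS14, RPS19, RPL22, RPL22L1 and RPS27L, which were not analysed here.

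**Figure D2:**
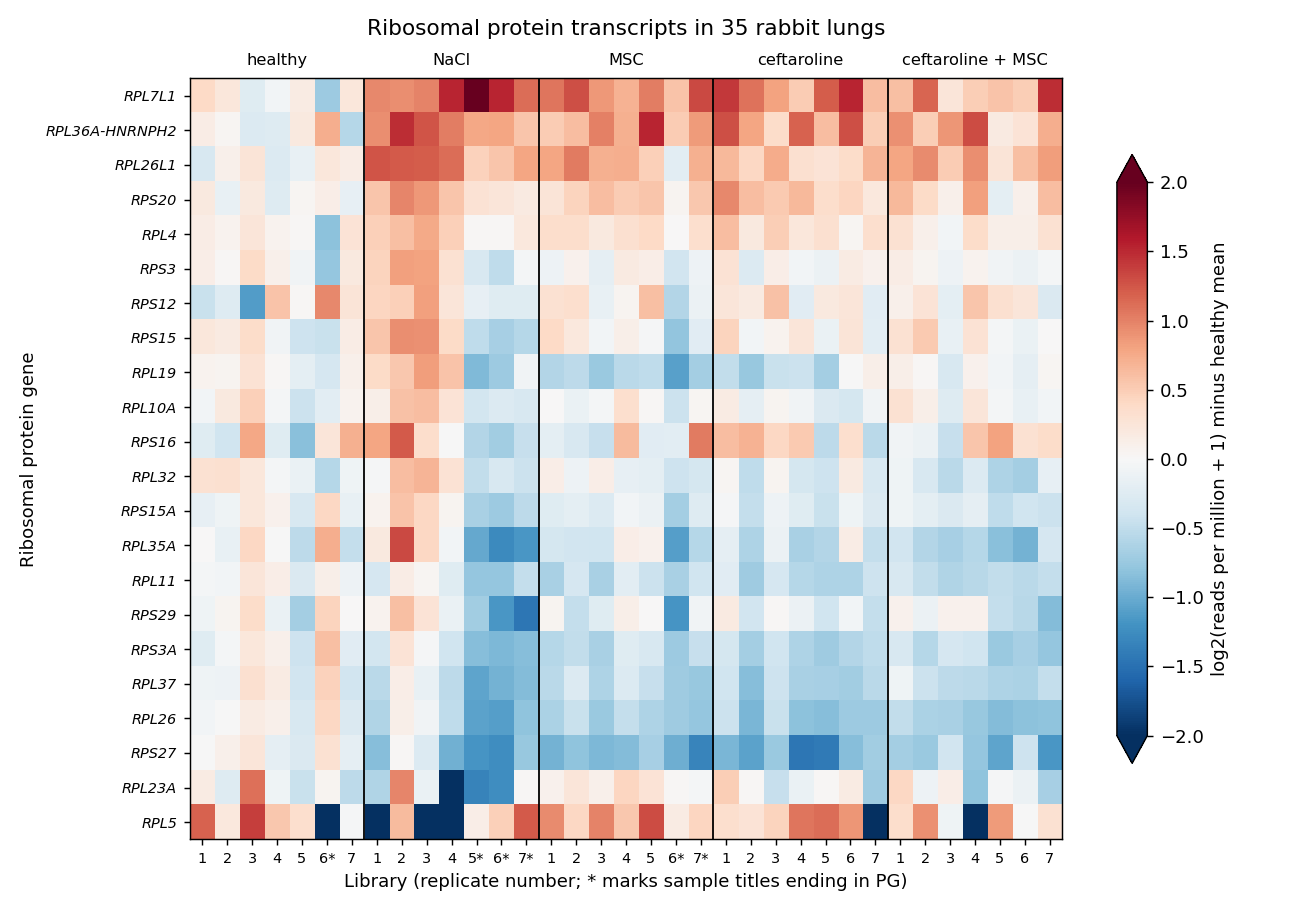
Colours give log2(rpm + 1) minus the healthy mean for 22 of the 24 tested ribosomal protein genes (rows, ordered by their log2 fold change in pneumonia with NaCl) in 35 libraries (columns, by group and replicate number, with an asterisk for titles ending in PG). RPL7L1, RPL36A-HNRNPH2 and RPL26L1 are above healthy in most diseased lungs, RPS27 and RPL26 below in most, and NaCl replicates 5 to 7 are below NaCl replicates 1 to 4 over most rows.

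The split of the NaCl lungs by title ending was seen in nearly every member. The 3 PG libraries had a lower mean than the other 4 in 22 of 24 members, and 19 members were lower without overlap, where 15.8% of all 10345 genes were. No member was higher without overlap, where 16.1% of all genes were. The median difference was -0.71 on the log2 scale over the members and 0.02 over all genes. Among the largest were those of RPL35A (-1.62), RPS29 (-1.31), RPS15 (-1.27) and RPS16 (-1.17). RPL7L1 (0.49) and RPL5 (2.80) had the opposite sign.

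RPS15A, a small-subunit protein chosen here after its values were seen, shows the size of the split. It had 892, 1269, 1137 and 880 rpm in NaCl replicates 1 to 4 and 540, 515 and 588 rpm in the PG replicates 5 to 7, against 680 to 1137 rpm in healthy lungs. The 4 libraries without an ending lay within or above the healthy range, and the PG libraries lay below it. RPL35A, a large-subunit protein whose loss is known from Diamond-Blackfan anaemia, had 128, 281, 150 and 108 rpm in replicates 1 to 4 and 54.6, 45.6 and 49.7 rpm in replicates 5 to 7, against 77.9 to 186 rpm in healthy lungs. It too lay below every healthy lung in the PG libraries only. The 1 healthy PG library, replicate 6, did not share this: it had the highest RPS15A (1137 rpm) and RPL35A (186 rpm) of the healthy group. Its title begins with D, unlike those of the NaCl PG libraries.

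Direction and number of calls with disease therefore depended on these libraries. Within the libraries without a title ending (2 healthy and 4 NaCl), 5 members were called, all higher, where 20.2% of all genes were higher and 18.1% lower, and the median log2 fold change was 0.60. Within those with an ending (5 healthy, mostly PD, and 3 NaCl), 15 members were called, 3 higher and 12 lower, where 27.6% of all genes were higher and 28.6% lower, and the median was -0.58. Without any PG library, 9 members were called higher and 1 lower, where 30.6% and 31.5% of all genes were, with a median of 0.43. With PG as a covariate 8 were called higher and 1 lower, where 31.5% and 32.7% of all genes were, with a median of 0.26. That fit assumes 1 PG effect in both groups, while the 1 healthy PG library was not low in RPS15A or RPL35A. The difference between the disease effects with and without an ending, a test added after the data were seen, was past the threshold in 9 of 24 members, all lower with an ending, where 9.69% of all genes were called and 5.06% were lower. The largest were those of RPL35A (-2.02, SE 0.48, adjusted p = 0.020), RPS16 (-1.96, SE 0.48, adjusted p = 0.023) and RPS29 (-1.91, SE 0.36, adjusted p = 0.0068).

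The scale also mattered for direction. When the size factors were replaced by the total reads outside the members, 3 members were called higher and 10 lower instead of 4 and 3, where 15.4% of all genes were higher and 45.9% lower. That scale moved the median of all genes to -0.41 and that of the members to -0.39, so relative to all genes the members were again near 0. The total of all reads, members included, gave the same counts of 3 and 10, where 15.6% and 45.6% of all genes were called, and a median of -0.40 for all genes. On these 2 scales RPS20 had values of 0.12 and 0.13 and was not called.

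The summed markers of some cell types, but not of all, separated by the ending in the NaCl group. The summed level of 11 neutrophil markers, 3 of them at 0 in every library, ranged from 1494 to 9974 rpm in healthy lungs, from 73989 to 140125 rpm in the 4 NaCl libraries without an ending and from 14807 to 51718 rpm in the 3 PG libraries. The sum of 10 macrophage markers ranged from 378 to 854 rpm in healthy lungs, from 2450 to 5888 rpm in NaCl lungs without an ending and from 1018 to 1413 rpm in PG lungs. The sum of 9 mesenchymal markers, 1 of them at 0, ranged from 2569 to 3698 rpm, from 680 to 1204 rpm and from 1692 to 3979 rpm in the same order. Endothelial markers (1058 to 1899 rpm without an ending, 1934 to 2160 rpm in PG lungs) and red-cell markers (255 to 1014 rpm and 60.0 to 168 rpm) also separated in NaCl lungs. The sums of type I, type II, airway, T and NK cell, and B and plasma cell markers overlapped between these NaCl lungs. With disease all 7 neutrophil markers tested and 6 of 10 macrophage markers rose, where 29.7% of all genes did. All 5 type I and all 3 type II markers tested fell, where 30.9% of all genes did. The part of cell composition in the ribosomal protein results was not tested.

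In the MSC group the 2 PG libraries had a lower mean than the other 5 in 22 of 24 members, with a median difference of -0.28. By the median log2 difference from the healthy mean, replicate 6 (-0.45) lay below the other MSC libraries. Replicate 7 (-0.11) lay within their range. Of the members 7 were lower without overlap, where 11.0% of all genes were.

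**Figure D3:**
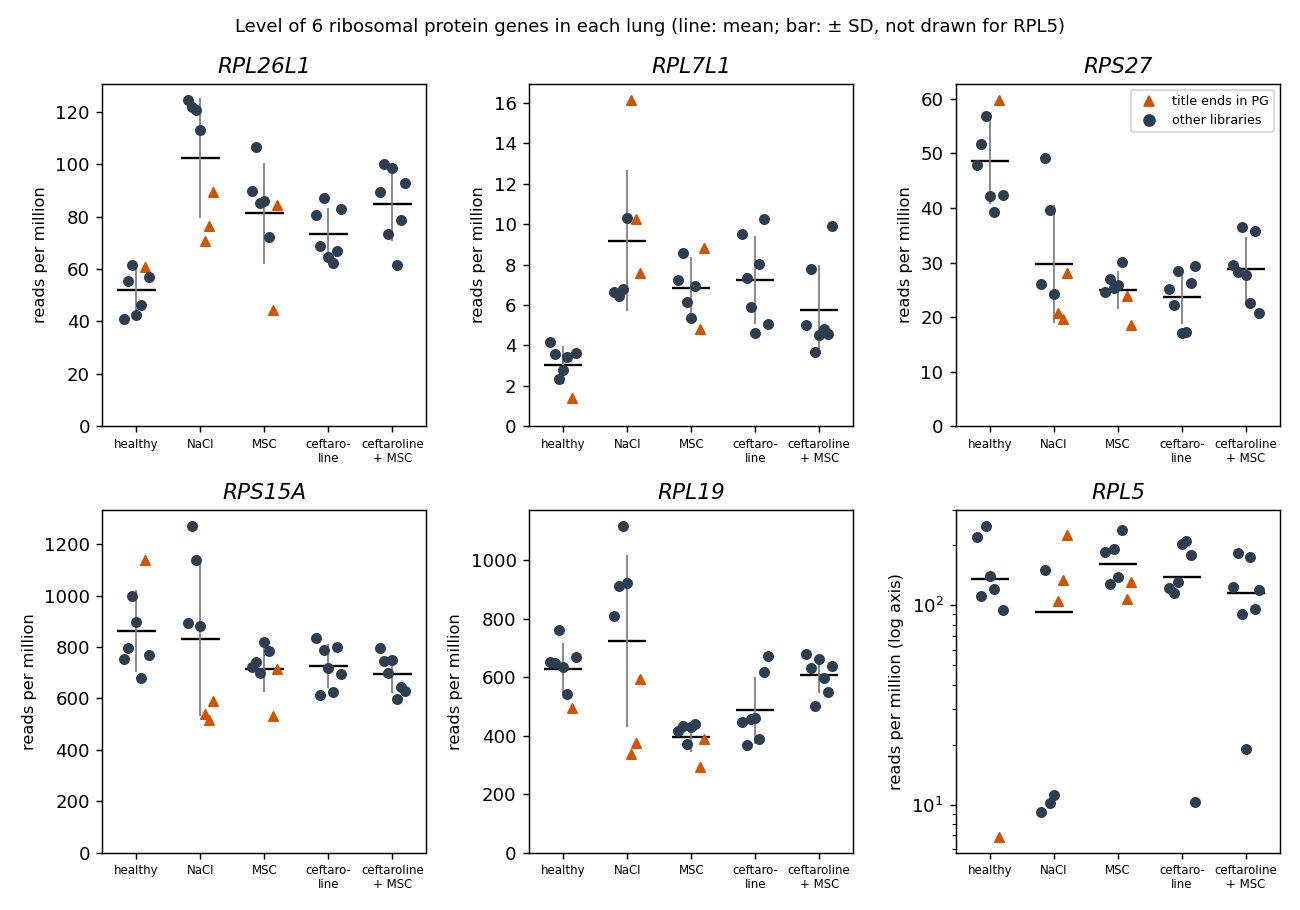
Each panel gives 1 ribosomal protein gene in rpm (linear axes from 0, and a log axis for RPL5) for the 7 lungs of each group, with the mean as a line and ± SD as a bar (no bar for RPL5), and triangles for titles ending in PG. RPL26L1 and RPL7L1 are higher in every NaCl lung than in any healthy lung, RPS15A and RPL19 split the NaCl group by title ending, and RPL5 falls into a low set of 6 lungs and a high set of 29.

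RPL5, a partner of RPL11 and 5S ribosomal RNA, fell into 2 sets of libraries. It lay between 6.87 and 18.9 rpm in 6 libraries and between 90.5 and 251 rpm in the other 29, with none between, a step of 4.79-fold. The low libraries were healthy replicate 6 (6.87 rpm), NaCl replicates 1, 3 and 4 (9.19, 10.2 and 11.2 rpm), ceftaroline replicate 7 (10.3 rpm) and ceftaroline plus MSC replicate 4 (18.9 rpm). They came from 4 of the 5 groups, and each held 57 to 260 RPL5 reads. The other members were not low in most of them: their median difference from the healthy mean ranged from -0.29 to 0.63 on the log2 scale in these 6 libraries. The -0.29 was that of ceftaroline replicate 7, where the median over all 24 members (-0.30) lay below every healthy lung. The spread of RPL5 within groups was 1.44 (SD, log2), larger than that of 98.6% of all genes. The log2 fold change with disease was -0.98 with an SE of 0.90 and was not called. Without the PG libraries, where 3 of 4 NaCl lungs and none of 6 healthy ones were in the low set, it was -2.85 and called (adjusted p = 0.0033).

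RPL23A, a protein at the tunnel exit, had a comparable single low value of 23.6 rpm in NaCl replicate 4, where the other 34 libraries lay between 108 and 590 rpm. This step of 4.59-fold was set by 1 library. No member besides RPL5 and RPL23A had a step of over 1.89-fold between neighbouring libraries.

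Most tested genes of a ribosome biogenesis list rose with disease. Of 32 listed genes 25 were found, and 5 of these were at 0 in every library, FBL among them. Of the 20 tested with disease, 19 rose and 1 fell, beside the 29.7% and 30.9% of all genes that did. Their median log2 fold change was 1.41, against 0.07 for the ribosomal protein genes. RRS1, an assembly factor of the large subunit, rose by 2.81 (SE 0.22) and BYSL, an assembly factor of the small subunit, by 2.45 (SE 0.22). Nucleolin (NCL) rose by 1.36 (SE 0.18), nucleophosmin (NPM1) by 1.29 (SE 0.16) and POLR1A, the largest subunit of RNA polymerase I, by 1.74 (SE 0.20). UBTF, a transcription factor of ribosomal DNA, fell by 0.90 (SE 0.11). The difference between the 2 medians was not tested. The counts were again 19 and 1 without the PG libraries, where 30.6% and 31.5% of all genes were called, and the median was 1.17. The summed level of the list split by the title ending: it ranged from 1439 to 1645 rpm in healthy lungs, from 2381 to 3419 rpm in NaCl lungs without an ending and from 3903 to 4427 rpm in PG lungs, where most ribosomal protein genes were lower.

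Other genes with TOP transcripts were mixed in direction. Of 10 tested, 3 rose and 2 fell, shares near or under those of all genes, with a median of 0.13. TPT1, a growth-related protein, rose by 1.59 (SE 0.29), the elongation factor subunit EEF1B2 by 0.83 (SE 0.19) and the initiation factor EIF4B by 0.65 (SE 0.16). EIF3E and EIF3F, subunits of initiation factor 3, fell by 0.61 (SE 0.15) and by 0.51 (SE 0.16). With the PG libraries left out 3 rose and 1 fell, where 30.6% and 31.5% of all genes did. EIF3F was then not called (-0.28, adjusted p = 0.082). EEF1A1, the main elongation factor, had a value of -0.05 (SE 0.17) and did not pass.

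Of 13 genes found that control TOP translation or ribosomal protein transcription, 5 were at 0 in every library, MTOR itself among them, and could not be tested. Of the 8 tested, 4 rose, where 29.7% of all genes did. These were MYC, a driver of ribosome biogenesis (2.17, SE 0.30), its partner MAX (1.73, SE 0.18), the mTOR inhibitor SESN2 (1.07, SE 0.27) and RPS6KB1, the kinase of RPS6 (0.56, SE 0.20). LARP1, which binds TOP transcripts, had a value of 0.41 (SE 0.18, adjusted p = 0.057). When the PG libraries were left out 5 rose and 1 fell, where 30.6% and 31.5% of all genes did. RPS6KB1 was then not called (0.29, adjusted p = 0.17). The summed level of the list ranged from 855 to 1761 rpm in healthy lungs, from 2113 to 3584 rpm in NaCl lungs without an ending and from 1314 to 2068 rpm in PG lungs, which overlapped the healthy ones.

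Of 8 tested genes of ribosome surveillance and stress response, 4 rose, where 29.7% of all genes did. CDKN1A (2.44, SE 0.13) and GADD45A (1.90, SE 0.18) were among them. Among libraries other than PG 3 rose and 1 fell, where 30.6% and 31.5% of all genes did. The summed level of the list ranged from 2187 to 2753 rpm in healthy lungs, from 3216 to 4031 rpm in NaCl lungs without an ending and from 2706 to 2982 rpm in PG lungs. No gene of the last 2 lists fell with all libraries, where 30.9% of all genes did.

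**Figure D4:**
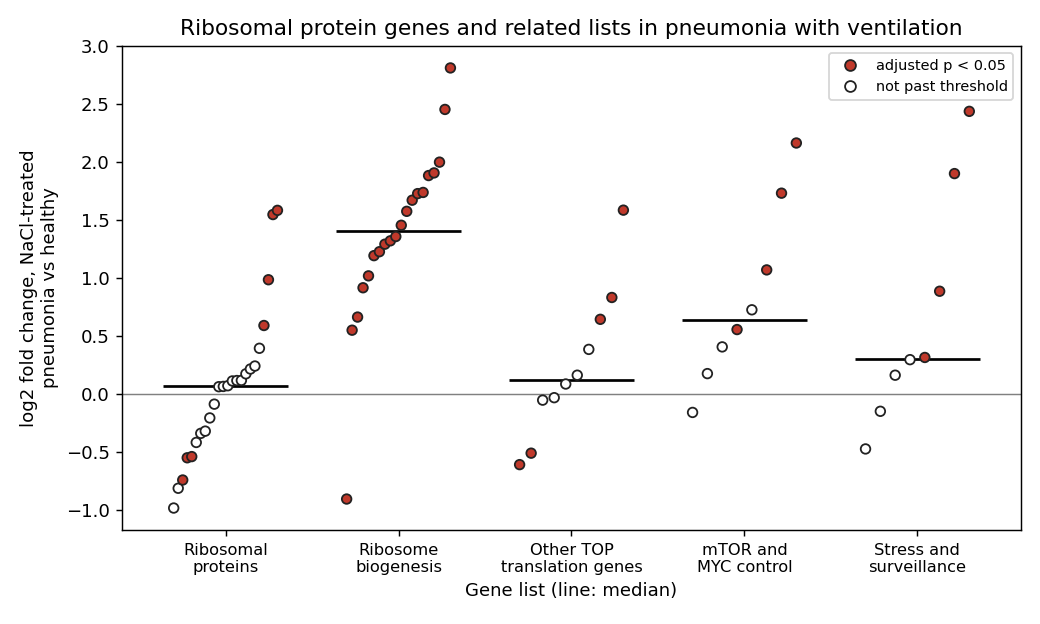
Log2 fold changes in NaCl-treated pneumonia against healthy lung (vertical axis) for 24 ribosomal protein genes and 4 related gene lists (horizontal axis, points ordered by value, lines at medians, filled points past the threshold). Ribosomal protein genes have a median of 0.07 and ribosome biogenesis genes a median of 1.41, with UBTF alone below 0 in the latter.

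Treatments were compared in diseased lungs to ask whether they alter lung transcripts. The MSC and ceftaroline comparisons share the NaCl libraries with each other and with the disease comparison, so their values are given side by side only. MSC against NaCl called 0 of 24 members by limma, where 0.00% of all 9446 genes were called. Of the members 2 had an unadjusted p under 0.05, where 17.7% of all genes did. edgeR called 0 members, where 0.00% of all genes were called. DESeq2 and the authors' deposited table called 1, RPL19, where they called 3.69% and 3.33% of all genes, a share near that of the members. Lower means were found for 19 members and higher ones for 5, with a median of -0.15 against 0.01 for all genes. Within libraries without a title ending the median was -0.37 against 0.02 for all genes, and within those with one 0.10 against 0.02.

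RPL19, a large-subunit protein that bridges to the small subunit, had 3220, 7688 and 10810 normalized reads with NaCl and 2781, 3877 and 4148 with MSC. All 7 MSC lungs lay below the 4 NaCl lungs without a title ending and overlapped the 3 with one. The log2 fold change was -0.77 (SE 0.26, adjusted p = 0.19 by limma), and the authors' deposited table gives -0.89 with an adjusted p of 0.033. Within libraries without a title ending it was -1.18 (adjusted p = 0.020), the 1 member called there, where 0.0741% of all genes were, and within those with one -0.32 (adjusted p = 0.77).

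RPL5 had 87.4, 1009 and 2159 normalized reads with NaCl and 1017, 1312 and 2260 with MSC, a log2 difference of 1.70 (SE 0.72, adjusted p = 0.25). No MSC lung was in the low set, while 3 of 7 NaCl lungs were. RPL23A had 226, 1715 and 5166 with NaCl and 2559, 2783 and 3500 with MSC, a log2 difference of 0.98 (SE 0.49, adjusted p = 0.31), with NaCl lungs both above and below all MSC lungs. RPL7L1 (-0.39, SE 0.23), RPL32 (-0.21, SE 0.21), RPS3 (-0.28, SE 0.23) and RPL11 (-0.15, SE 0.18) did not pass either.

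Ceftaroline against NaCl also called 0 of 24 members by limma, where 0.00% of all 9614 genes were called. At an unadjusted p under 0.05 there was 1 member, where 18.3% of all genes were. edgeR called 0, where 0.00% of all genes were called. DESeq2 and the authors' deposited table called 1, RPL26L1, where they called 5.51% and 4.69% of all genes, again near the share of the members. Lower means were found for 19 members and higher ones for 5, with a median of -0.15 against 0.02 for all genes. Without the PG libraries the median was -0.45 against 0.03 for all genes. RPL26L1 had 844, 1339 and 1470 normalized reads with NaCl and 717, 810 and 1003 with ceftaroline. All 7 ceftaroline lungs were below the 4 NaCl lungs without a title ending and overlapped the 3 with one, and the log2 fold change was -0.49 (SE 0.15, adjusted p = 0.16 by limma). The authors' deposited table gives -0.51 with an adjusted p of 0.042. Without the PG libraries the value for RPL26L1 was -0.75 (adjusted p = 0.097 by limma) and that for RPL19 was -0.997 (adjusted p = 0.13), against -0.51 (SE 0.27) for RPL19 with all libraries. RPS27 (-0.31, SE 0.21) did not pass. Nor did RPL7L1 (-0.35, SE 0.25), RPL5 (1.14, SE 0.88), RPL32 (-0.27, SE 0.22), RPS3 (-0.21, SE 0.22) or RPL11 (-0.19, SE 0.18).

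MSC added to ceftaroline were compared with ceftaroline alone, in libraries with no title endings. Again 0 of 24 members were called by limma, edgeR, DESeq2 or the authors' deposited table, where these called 0.0403%, 0.111%, 0.998% and 0.963% of all genes, 9924 of which were tested by limma. At an unadjusted p under 0.05 there were 2 members, where 11.5% of all genes were. The median was -0.06 against 0.00 for all genes, with 7 members higher and 17 lower. RPL19 had 5744, 6991 and 10310 normalized reads with ceftaroline and 7794, 9649 and 10325 with the combination, a log2 difference of 0.34 (SE 0.14, adjusted p = 0.43). The ranges overlapped. RPL35A (-0.27, SE 0.15), RPL7L1 (-0.36, SE 0.25), RPL32 (-0.21, SE 0.15), RPL5 (-0.14, SE 0.65), RPS3 (-0.05, SE 0.11) and RPL11 (0.00, SE 0.10) did not pass.

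**Figure D5:**
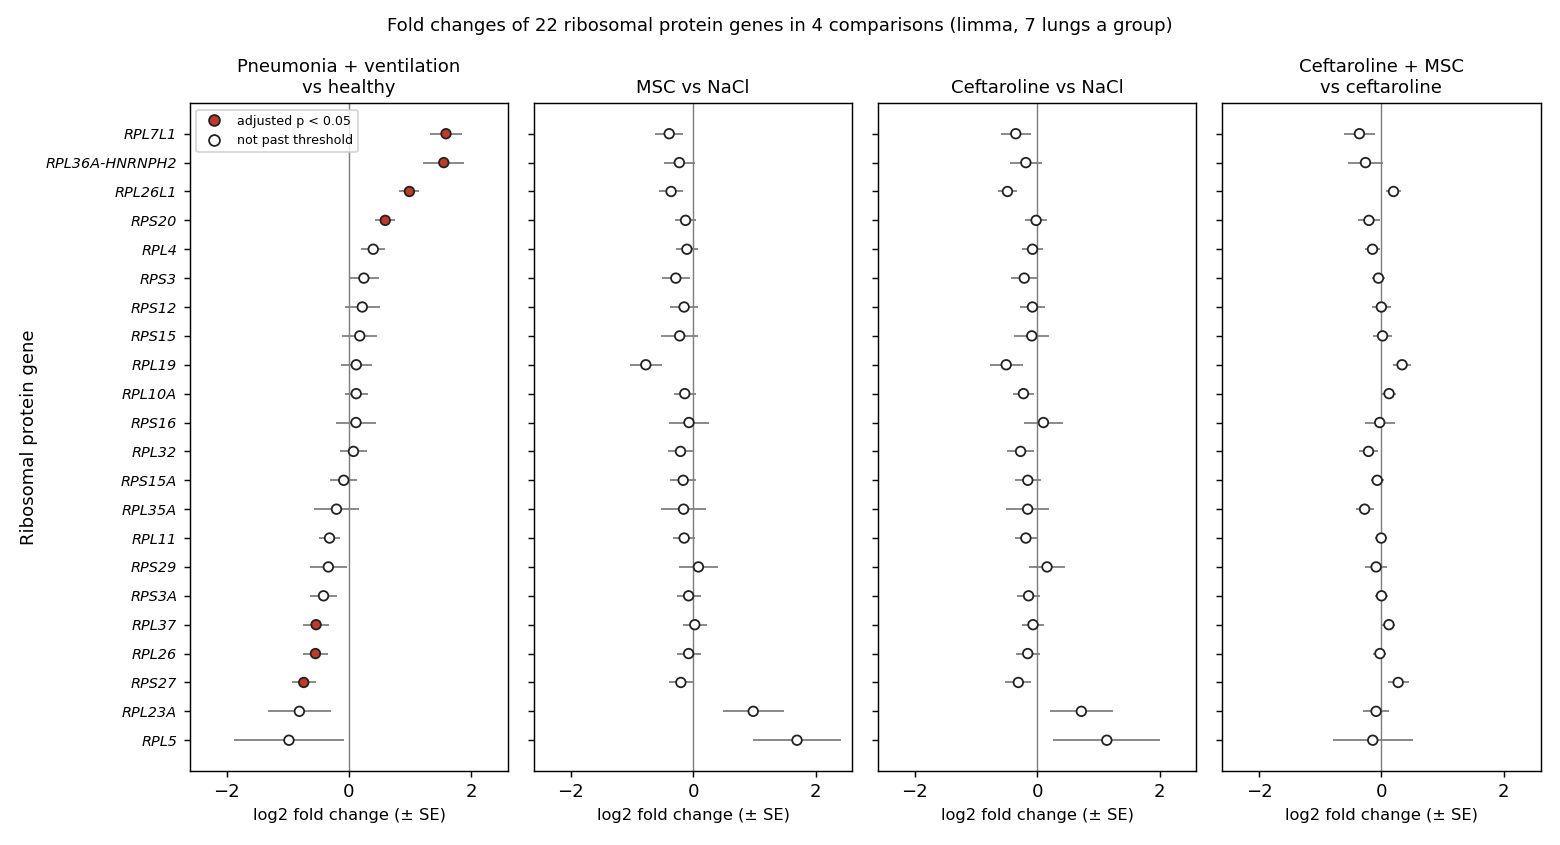
Log2 fold changes with their standard errors (horizontal axes) of 22 of the 24 tested ribosomal protein genes (rows) in 4 comparisons of 7 against 7 lungs, with filled points at an adjusted p under 0.05 by limma. Filled points appear in the comparison with healthy lung and in none of the 3 treatment comparisons, and RPL5 has the widest error bars.

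The mean of RPL19 was lower with MSC than with NaCl and higher with MSC than without when ceftaroline was given. The difference between these MSC effects was 1.10 as log2 (SE 0.27, adjusted p = 0.14) and was not called. It was called at 1.17 (adjusted p = 0.036) with the title ending as a covariate, where 0.126% of all genes were called. With PG alone as a covariate, added after the data were seen, it was called at 1.20 (adjusted p = 0.0074), where 0.213% of all genes were. By group, RPL19 had 494, 647 and 759 rpm in healthy, 336, 808 and 1115 rpm in NaCl, 294, 417 and 438 rpm in MSC, 369, 458 and 673 rpm in ceftaroline and 500, 630 and 678 rpm in combined treatment. In order of median, MSC and ceftaroline were lowest and NaCl highest, and all neighbours in that order overlapped. For this difference 0 members were called, where 0.00967% of all 10345 genes were, and 3 had an unadjusted p under 0.05, where 5.88% of all genes did. edgeR called 0 members.

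The treated lungs were also set against the healthy ones in a joint fit of all 35 libraries. These comparisons share the healthy libraries, and their values are given side by side. With MSC, 10 of 24 members were called, where 51.2% of all genes were: 4 were higher (26.7% of all genes) and 6 lower (24.6%). With ceftaroline there were 9, where 55.3% of all genes were called: 4 were higher (29.1%) and 5 lower (26.1%). With both there were 8, where 35.1% of all genes were called: 3 were higher (19.8%) and 5 lower (15.3%). In each comparison 3 members were lower without overlap, where 5.76%, 9.18% and 3.85% of all genes were. Higher without overlap were 1, 3 and 1 members, where 6.93%, 11.3% and 5.70% of all genes were.

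RPS27 had 39.3, 47.9 and 59.8 rpm in healthy lungs, 18.6, 25.4 and 30.1 rpm with MSC, 17.1, 25.1 and 29.4 rpm with ceftaroline and 20.8, 28.3 and 36.5 rpm with both. No treated lung reached the lowest healthy lung. The log2 fold changes were -0.93, -1.02 and -0.75 (SE 0.17 each), all called.

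RPL26 had 995, 1237 and 1663 rpm in healthy lungs, 725, 802 and 915 rpm with MSC, 663, 750 and 928 rpm with ceftaroline and 681, 738 and 882 rpm with both. Here too every treated lung was below every healthy lung, and the log2 fold changes were -0.63, -0.70 and -0.72 (SE 0.15 each), all called. RPL26L1 went the other way, at 40.9, 55.3 and 61.6 rpm in healthy lungs, 44.3, 85.0 and 106 rpm with MSC, 62.4, 68.9 and 87.0 rpm with ceftaroline and 61.7, 89.4 and 100.1 rpm with both. It overlapped the healthy range with MSC only, and the log2 fold changes were 0.61, 0.49 and 0.70 (SE 0.16 each), all called. The value with ceftaroline was 0.29 and not called with the title ending as a covariate. RPL26 and RPL26L1 are paralogs whose reads may be partly exchanged, which was not tested, and their rabbit sequences were not compared here.

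RPL7L1 rose in all 3 (0.97, 1.02 and 0.72, SE 0.21 each), as did RPL36A-HNRNPH2 (0.82, 0.86 and 0.68, SE 0.20 each). Their means in healthy lungs were 3.04 and 1.08 rpm. At such levels log2(rpm + 1) understates fold changes, so these values cannot be set beside those of NaCl lungs, fitted in normalized reads. With the title ending as a covariate the value of RPL36A-HNRNPH2 with both treatments was 0.46 (adjusted p = 0.16) and not called. RPL11 fell in all 3 (-0.47, -0.50 and -0.50, SE 0.13 each), as did RPS3A, a protein near the exit of messenger RNA (-0.50, -0.55 and -0.55, SE 0.16 each), and RPL37 (-0.52, -0.60 and -0.47, SE 0.16 each). RPS20 rose with MSC (0.42, SE 0.15) and with ceftaroline (0.53, SE 0.15) and had a value of 0.35 (adjusted p = 0.069) with both. With the title ending as a covariate its values with MSC (0.30, adjusted p = 0.11) and with ceftaroline (0.32, adjusted p = 0.12) were not called. Scaled by total reads outside the members, its value with MSC was 0.29 (adjusted p = 0.083). RPL19 was called with MSC only (-0.66, SE 0.19), where its highest lung, at 438 rpm, was below the lowest healthy lung, at 494 rpm.

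Within groups, most members varied together. Over the 35 libraries, after each group's mean was taken out, the median correlation over 276 pairs of members was 0.45, against 0.00 over all pairs of genes tested. With the PG libraries left out of the correlation it was 0.44, but the group means taken out still included them. Part of the split by title ending therefore remains in that value. All these correlations are descriptions over libraries that share preparation and scaling. RPS15A (r = 0.94) and RPL35A (r = 0.91) followed the median of the other members most closely. RPL5 (r = -0.27) and RPL7L1 (r = -0.27) did not follow it. The median spread within groups was 0.34 (SD, log2) over the members and 0.39 over all genes, and RPL11 had the lowest of the members, at 0.22.

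The 10 other genes with the closest pattern by the same measure, over 35 libraries, were DNAJC21 (r = 0.92), PTPRR (0.89), DPM3 (0.88), ST3GAL3 (0.86), NDUFA2 (0.85), CFAP70 (0.84), CASK (0.84), UBB (0.82), GPR1 (0.82) and TMEM120B (0.81). DNAJC21 is a chaperone cofactor of large-subunit maturation, and UBB encodes ubiquitin. With the PG libraries left out, but still counted in the group means, the values ranged from 0.76 to 0.92.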

How the data were processed

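Lung RNA of 35 rabbits was sequenced as stranded 75 bp single reads, per the labels' protocols. Per those protocols, Cutadapt 1.15 removed adapters, and only reads longer than 10 bp remained. TopHat2 2.1.1, featureCounts 1.5.2 and DESeq2 1.24.0 are named in the submitters' processing notes. For the genome build, the annotation and the handling of multiply mapped reads, the sources used here give nothing.

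The authors deposited 4 tables of 14 libraries each. Per the file headers, each holds a signal per gene and library, which is the read number divided by a size factor, together with the authors' log2 fold change and its standard error, a test score (the Wald statistic), a p-value and an adjusted p-value. Every deposited signal was a whole multiple of the value of 1 read within a relative tolerance of 1e-06, so 100% of values gave whole reads, and the 21 libraries present in more than 1 table gave the same reads in each.

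For each table, limma 3.58.1 (R 4.3.3, intensity trend, two-sided) was fitted to log2(value + 1) of all genes that reached 10 in 7 or more of 14 libraries, for the 2 groups of 7 with no covariate. Calls were made where the p adjusted over all genes by Benjamini-Hochberg was under 0.05. Fold changes are on this log2(value + 1) scale, which understates those of low genes. Comparisons of treated with healthy lungs used all 35 libraries in 1 fit of log2(rpm + 1) with effective library sizes by trimmed mean of M values (edgeR 4.0.16). edgeR's quasi-likelihood test on the recovered reads called 5790 genes with disease, 0 with MSC, 0 with ceftaroline and 11 with the combination. DESeq2 1.42.0 was a further alternative. The fits were tested on simulated data. Levels are not divided by transcript length, so they are not compared between genes.

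The labels tie each library to 1 rabbit and say nothing of repeated sampling. Numbers in the sample titles were not used to pair the libraries in the main fits. Named are the 5 largest rises and falls among called members, or the 3 members with the lowest p where none was called, a panel of 14 members, and the 10 other genes closest in pattern. The members, the lists and the panel were chosen with earlier results of these data known. Of the 37 names, 36 are in RefSeq's rabbit gene table (mOryCun1.1), which was used for names only and has 47 more symbols of the same form. No sequence of a member is printed. Some genes are not reported here by name, and 2 of the 24 tested members are left out of the plots that name genes.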

Additional observations from a re-analysis of the deposited data

Results flagged for a closer look

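Of 120 sets of 7 lungs (24 members in 5 groups), 7 had a lung that stood apart from the other 6, where chance gives about 1 in 20, or 6. RPL11 was highest in ceftaroline plus MSC replicate 1 at 1522 rpm, with the nearest lung at 1366 rpm. RPL37 was highest in the same lung at 1042 rpm, with the nearest at 820 rpm. RPL23A was highest in healthy replicate 3 at 590 rpm, with the nearest at 309 rpm. RPL36A-HNRNPH2 was highest in MSC replicate 5 at 4.76 rpm, with the nearest at 3.02 rpm. RPL4, which lines the peptide tunnel, was lowest in healthy replicate 6 at 1185 rpm, with the nearest at 2130 rpm. RPL7L1 was highest in NaCl replicate 5 at 16.1 rpm, with the nearest at 10.3 rpm. RPS15A was lowest in MSC replicate 6 at 533 rpm, with the nearest at 700 rpm. Healthy replicate 6, NaCl replicate 5 and MSC replicate 6 carry the PG ending.

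The disease effect differed between libraries with and without a title ending in 9 members by limma's test of the difference, all lower with an ending. The log2 differences were -1.91 for RPS29 (adjusted p = 0.0068), -1.29 for RPS15A (adjusted p = 0.013), -0.97 for RPL26L1 (adjusted p = 0.018), -2.02 for RPL35A (adjusted p = 0.020) and -1.96 for RPS16 (adjusted p = 0.023). They were -1.26 for RPL19 (adjusted p = 0.023), -1.43 for RPS15 (adjusted p = 0.024), -1.24 for RPS3A (adjusted p = 0.027) and -1.08 for RPL10A (adjusted p = 0.028). Of the 5 healthy libraries with an ending 4 carry PD, while all 3 NaCl libraries carry PG, so the ending is not the same mark in both groups.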

How the results depend on the processing

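Counts of called members with disease were 13 when the size factors were replaced by total reads outside the members, 13 with total reads of all genes (added after seeing the data) and 15 within libraries with a title ending, against 7, and 5 to 8 with 1 library left out. For MSC the count was 1 with DESeq2, with the authors' deposited adjusted p and within libraries without an ending, and for ceftaroline 1 with DESeq2 and with the authors' adjusted p, against 0. For the difference between the MSC effects it was 1 with the title ending or PG as a covariate, where 0.126% and 0.213% of all genes were called, against 0. For the 3 treatment comparisons it was 0 throughout with 1 library left out. The summed share outside the 100 most abundant genes was 1.33% in healthy, 1.03% in NaCl, 1.03% in MSC, 1.01% in ceftaroline and 1.06% in combined treatment. The other 129 such values stayed within 1.5 times of the count or 1 SD of the share. The causes were not tested.

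Signs turned for single members that were not called, and for RPL37. Scaled by total reads outside the members, RPL32 and RPS3 with disease became -0.37 and -0.22, RPL11, RPL32 and RPS3 with MSC 0.16, 0.093 and 0.023, RPL11 and RPS3 with ceftaroline 0.064 and 0.037, and RPL11, RPL5 and RPS3 in the combination 0.15, 0.011 and 0.11. This scale moved the median of all genes to -0.41 with disease, 0.28 with MSC, 0.23 with ceftaroline and 0.14 in the combination, and relative to those medians 9 of these 10 values kept their sign, all but RPL11 in the combination. With total reads of all genes, RPL32 and RPS3 with disease became -0.37 and -0.22. Within libraries without an ending, RPL11 and RPL37 with disease became 0.12 and 0.015. Within those with one, RPL32, RPL5 and RPS3 with disease became -0.37, 0.98 and -0.25, and RPL11, RPL32, RPL5 and RPS3 with MSC 0.14, 0.024, -0.33 and 0.036. RPL32 with disease was -0.066 with the ending as a covariate and -0.025 without the NaCl library marked S00. With 1 library left out, RPL32 with disease ranged from -0.038 to 0.16, RPL11 in the combination from -0.036 to 0.043 and RPL5 in the combination from -0.70 to 0.25.

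Numbers in the sample titles are shared between diseased groups, and same-numbered libraries correlated from -0.38 to 0.48. The same-numbered library was the closest match in some pairs and not in most, so whether they share more than a number cannot be told. With the replicate block, 0 members were called for MSC, 0 for ceftaroline and 0 for the combination, as without it. Over all genes the combination had 0 calls with the block and 4 without. PG alternatives were chosen after seeing the data. Depth limits RPL10L, where 3 reads are 0.0903 to 0.396 rpm.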
